A study of Mus musculus with 12 samples.

Results

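The muscle regulatory factors Myog, Myod1 and Myf6, the acetylcholine receptor subunits Chrna1, Chrnb1, Chrnd, Chrne and Chrng, the receptor kinase Musk and the stress gene Gadd45a are described here in the quadriceps muscle, and for background in the liver, of C57BL/6 mice aged 4 weeks. These 10 genes, of 18194 on an Affymetrix mouse genome array, had 13 probe sets that the annotation assigns to a single symbol, of 45101 in all. They were chosen with the muscle difference between the diet groups already known, so that difference is described below without a test. Each tissue had 3 samples from offspring of dams on the normal protein diet (20% casein, NP) and 3 from offspring of dams that also drank water with 1% taurine while pregnant (NP+tau). The methods give 1 pup per litter, with both tissues from the same animal, without saying this of the 4-week animals separately. Taking it to hold for them, p-values below measure the spread between these animals. Values are log2 expression values, and differences are NP+tau minus NP on this scale with the standard error from limma.

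Xist, which marks the inactive X chromosome, reached 10.85 to 11.13 in NP muscle. NP+tau replicate 1 shared this level (10.87), but replicates 2 and 3 had 5.56 and 5.12. These 2 muscles had high Eif2s3y, a Y-linked gene, with 9.37 and 9.24 against 3.48 to 3.71 in the rest. Liver gave the same division, so that sex and diet could be told apart in only 1 NP+tau animal, although the methods describe every group as mixed in sex. The liver array of NP+tau replicate 1 stood apart, with a median absolute deviation from the median array of 0.279 against 0.063 to 0.111 in the other livers. Among the muscles this deviation was 0.064 to 0.133. The 12 markers of skeletal muscle fibres averaged 13.24 to 13.65 per muscle, and the 6 hepatocyte markers on the array averaged 12.14 to 13.35 per liver, so that both tissues carried the markers of their label.

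Myod1, Myog and Myf6 are basic helix-loop-helix factors that pair with E proteins, bind E-boxes in DNA and switch on muscle genes. Among their targets are the subunits of the muscle acetylcholine receptor, the ion channel by which motor nerves excite muscle fibres. In innervated adult fibres, electrical activity keeps several of these genes low outside the synapse. After denervation Myog rises, and several of the receptor genes and Gadd45a with it.

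The bases before the transcription start show where E-boxes lie in Myog and in others of the 10 genes. RefSeq promoters (GRCm38.p6) matched 7 of the 10 genes, namely Myog, Chrna1, Chrnb1, Chrne, Chrng, Musk and Gadd45a. The 250 bases before the start were searched for the E-box CANNTG, for its form CAGCTG, which is counted under CANNTG as well, and for the N-box CCGGAA on both strands. Below are Myog, which had the largest muscle difference of the 10 genes, and the 3 receptor subunits Chrna1, Chrne and Chrng, for the α chain and for the chains of the adult and fetal receptor. Capitals mark every CANNTG.
Myog (chr1:134289754-134290003, plus strand): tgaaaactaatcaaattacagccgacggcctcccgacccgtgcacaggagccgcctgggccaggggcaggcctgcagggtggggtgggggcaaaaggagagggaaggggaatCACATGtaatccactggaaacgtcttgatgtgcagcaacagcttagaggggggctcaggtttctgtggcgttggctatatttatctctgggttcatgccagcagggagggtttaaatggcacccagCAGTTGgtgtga
Chrna1 (chr2:73580339-73580588, minus strand): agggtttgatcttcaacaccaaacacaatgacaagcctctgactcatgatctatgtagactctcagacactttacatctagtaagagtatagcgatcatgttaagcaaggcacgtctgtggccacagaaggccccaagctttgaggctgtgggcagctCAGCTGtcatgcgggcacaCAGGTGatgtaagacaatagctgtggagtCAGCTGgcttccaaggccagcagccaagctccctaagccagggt
Chrne (chr11:70619195-70619444, minus strand): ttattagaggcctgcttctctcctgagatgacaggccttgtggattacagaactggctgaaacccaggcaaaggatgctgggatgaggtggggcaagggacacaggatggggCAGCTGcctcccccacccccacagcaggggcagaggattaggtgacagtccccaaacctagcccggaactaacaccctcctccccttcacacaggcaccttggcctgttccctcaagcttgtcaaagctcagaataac
Chrng (chr1:87205561-87205810, plus strand): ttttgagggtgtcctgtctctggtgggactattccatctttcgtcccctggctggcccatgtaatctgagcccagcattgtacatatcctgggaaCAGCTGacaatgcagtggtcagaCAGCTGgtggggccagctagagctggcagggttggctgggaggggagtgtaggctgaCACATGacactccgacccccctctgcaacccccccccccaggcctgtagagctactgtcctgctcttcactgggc

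The Myog window held 2 E-boxes, CACATG beginning 138 bases and CAGTTG 12 bases before the start, and none of the form CAGCTG. Chrna1 held 3 E-boxes, with CAGCTG at 92 and 44 bases before the start, and Chrng likewise held 3, with CAGCTG at 155 and 132 bases. Chrne held a single E-box, CAGCTG at 138 bases, and an N-box at 76 bases before the start. Chrnb1 and Musk held 3 E-boxes each, of which 1 in Musk and 0 in Chrnb1 were CAGCTG. Gadd45a held 1 E-box, CAAATG, and 1 N-box. Over the 32851 promoter windows of the same length, 66.2% held CANNTG, 12.2% held 3 or more, 13% held CAGCTG and 12% held the N-box. These matches are letters in a window and were not measured as binding.

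Myog, the factor that drives differentiation of myoblasts, was higher in the muscle of the taurine group. Probe set 1419391_at was at 6.20, 6.39 and 6.35 in the NP muscles and at 8.10, 7.84 and 7.58 in the NP+tau muscles. The lowest NP+tau muscle therefore lay more than a log2 unit above the highest NP muscle. The group means were 6.31 ± 0.10 and 7.84 ± 0.26 (SD, n = 3 each), a difference of 1.53 (SE 0.17), which is 2.88-fold. Its difference was the 36th highest of the 29274 probe sets kept in muscle. The Xist-high NP+tau muscle, replicate 1, had the highest Myog value of the 6. Against the 3 NP muscles, all Xist-high, this sample alone differed by 1.79 (SE 0.20, which takes its spread from the NP muscles). With each muscle left out in turn the difference was 1.40 to 1.66. In bulk tissue, more cells of a type and more RNA per cell cannot be told apart.

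Of the 10 probe sets kept in muscle, Myog was the only one whose groups did not overlap. In this direction 7.33% of all probe sets kept had groups apart, and in the other 7.77%. No probe set of the array passed limma's test in muscle at an adjusted p under 0.05 (0.0% of 29274), and 1793 had an unadjusted p under 0.05. The members were chosen on this contrast, so nothing is read from these counts.

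**Figure D1:**
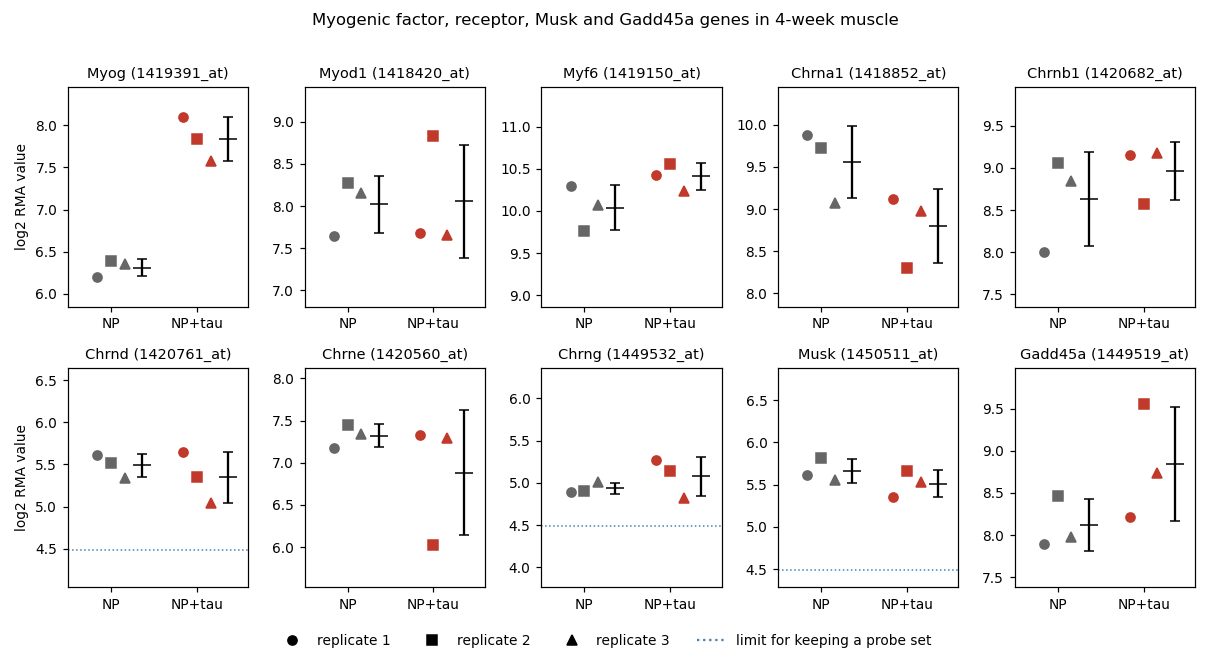
Log2 RMA values (vertical axes, each spanning the same number of log2 units) of 1 probe set of each gene in the 3 NP (grey) and 3 NP+tau (red) muscles. Marker shapes give the replicate, and black bars give the mean and SD of 3 samples. The NP muscles lie between 6.20 and 6.39 for Myog and the NP+tau muscles between 7.58 and 8.10, while the groups of the other 9 genes overlap.

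The other muscle regulatory factors did not follow Myog to this extent. Myod1 (1418420_at), which commits cells to the muscle lineage, was at 7.64, 8.27 and 8.15 in NP and at 7.68, 8.83 and 7.66 in NP+tau muscle. The high NP+tau value came from replicate 2, and the other NP+tau muscles lay with NP replicate 1 at the low end. The difference was 0.04 (SE 0.35) over all muscles and -0.35 (SE 0.22) without NP+tau replicate 2. The second Myod1 probe set, 1447675_x_at, stayed at 3.27 to 3.63 in all muscles, under the limit of 4.49 for keeping a probe set. Myf6 (1419150_at), the factor most abundant in mature fibres, was at 10.29, 9.76 and 10.07 in NP and at 10.43, 10.56 and 10.24 in NP+tau muscle. Only NP+tau replicate 3 and NP replicate 1 overlapped. The difference was 0.37 (SE 0.18), or 1.29-fold, and 0.23 (SE 0.19) without NP replicate 2.

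The receptor subunits went in several directions, and none had groups apart. Chrna1 encodes the ligand-binding α subunit. Probe set 1418852_at was at 9.88, 9.72 and 9.07 in NP and at 9.12, 8.30 and 8.98 in NP+tau muscle. The 2 highest values were NP samples and the lowest was NP+tau replicate 2. The difference was -0.76 (SE 0.30), so that NP was 1.69-fold above NP+tau, opposite in sign to Myog. It kept this sign with each muscle left out, from -1.0 without NP replicate 3 to -0.50 without NP+tau replicate 2, and was -0.44 (SE 0.36) for the Xist-high muscles alone.

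Chrne encodes the ε subunit that replaces γ in the adult receptor. Probe set 1420560_at was at 7.18, 7.45 and 7.34 in NP and at 7.33, 6.03 and 7.29 in NP+tau muscle. NP+tau replicate 2 was low, and the other NP+tau muscles lay within the NP range. The difference was -0.44 (SE 0.35) with that sample and -0.01 (SE 0.16) without it. Chrng encodes the γ subunit of the fetal receptor, which innervated adult fibres lose. Of its 3 probe sets, only 1449532_at passed the limit in muscle, at 4.89, 4.90 and 5.01 in NP and 5.27, 5.14 and 4.82 in NP+tau. These values are near the limit of 4.49, and the difference was 0.15 (SE 0.16). It was 0.36 (SE 0.22) with the Xist level as a covariate, 0.34 (SE 0.19) for the Xist-high muscles and 0.047 to 0.275 with each muscle left out, lowest without NP+tau replicate 1 and highest without NP+tau replicate 3. The others, 1427728_at and 1452520_a_at, were at 3.42 to 4.39.

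Chrnb1 encodes the β subunit. Probe set 1420682_at was at 8.0, 9.06 and 8.84 in NP and at 9.15, 8.57 and 9.18 in NP+tau muscle, where NP replicate 1 was the lowest. The difference was 0.33 (SE 0.31), and 0.02 without NP replicate 1. Chrnd (1420761_at), the δ subunit, was at 5.61, 5.52 and 5.34 in NP and at 5.65, 5.35 and 5.04 in NP+tau muscle. Its difference of -0.14 (SE 0.19) turned to 0.18 (SE 0.23) with the Xist level as a covariate and to 0.01 (SE 0.18) without NP+tau replicate 3. In liver this probe set was at 5.57 to 6.16, and whether its signal exceeds probe background was not tested. Musk (1450511_at), the kinase through which nerve-derived agrin clusters the receptors, was at 5.61, 5.82 and 5.55 in NP and at 5.35, 5.66 and 5.53 in NP+tau muscle, a difference of -0.14 (SE 0.15). It was -0.31 (SE 0.22) with the Xist level as a covariate, -0.31 (SE 0.21) for the Xist-high muscles and -0.218 to -0.062 with each muscle left out, the former without NP+tau replicate 2, the latter without NP+tau replicate 1.

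Gadd45a (1449519_at), a stress-induced gene that also responds to denervation, was at 7.90, 8.47 and 7.98 in NP and at 8.22, 9.56 and 8.74 in NP+tau muscle. The 2 highest values were the Xist-low NP+tau muscles, replicates 2 and 3, while replicate 1 lay within the NP range. The difference was 0.73 (SE 0.35), or 1.65-fold, and 0.36 (SE 0.25) without NP+tau replicate 2. For the Xist-high muscles alone it was 0.10 (SE 0.29). Sex and the size of this difference cannot be told apart here.

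**Figure D2:**
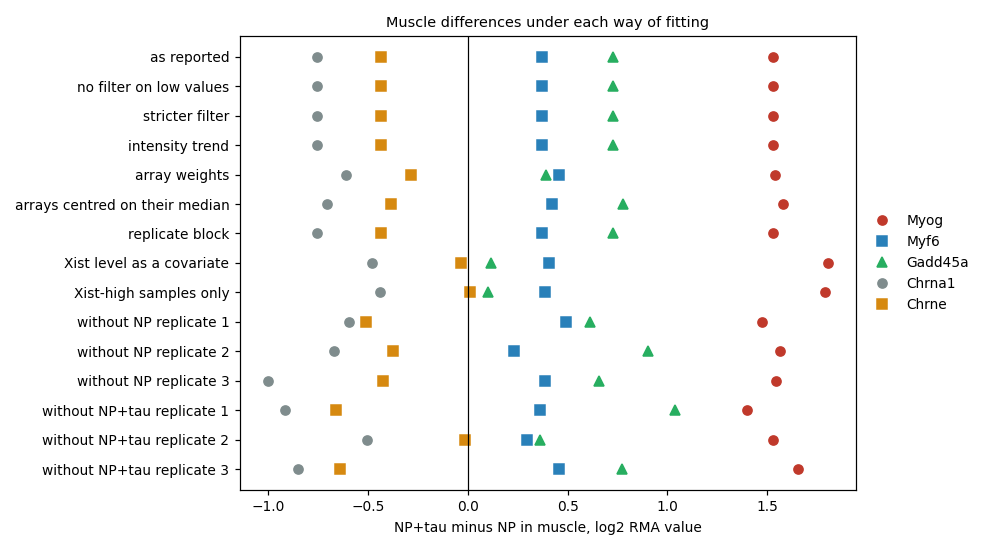
Muscle difference NP+tau minus NP (horizontal axis, log2 RMA value) of 5 genes as reported and under each alternative fit or left-out sample (vertical axis). Myog stays between 1.40 and 1.80, Chrna1 between -1.0 and -0.44, and Gadd45a ranges from 0.10 to 1.04.

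Several members stood apart in the same muscle. NP+tau replicate 2 had the lowest Chrna1 and Chrne and the highest Myod1, Gadd45a and Myf6 of the 6 muscles, whereas its Myog value was the middle one of its group. The pooled SD within groups was 0.20 for Myog against 0.53 for Myod1, Chrne and Gadd45a, where the median over all probe sets kept was 0.23. Markers of slow fibres were also lowest in this muscle, with a mean over 8 genes of 10.89, and highest in NP+tau replicate 1 at 12.41, against 11.09 to 11.72 in the NP muscles. The slow myosin heavy chain Myh7 was at 11.44 and 13.08 in these samples and at 12.52 in NP+tau replicate 3. All 8 slow-fibre markers were higher by mean in NP+tau, and the groups of each overlapped. The part of fibre type in the values of the members was not tested. The mean of 10 fast-fibre markers was 14.30 to 14.36 in all muscles.

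Markers of other cells in the muscle samples were set beside these values. Of the 5 satellite cell markers, which label muscle stem cells, 3 were higher and 2 lower in NP+tau, with list means of 4.94 to 5.08 (NP) and 4.98 to 5.25 (NP+tau), and Myf5 and Calcr lay under the limit in all muscles. The 5 Schwann cell markers on the array were all lower in NP+tau by mean, with list means from 8.24 to 8.88 (NP) and of 8.63, 8.0 and 7.72 (NP+tau). The 10 macrophage markers were likewise all lower by mean, with 6.52 to 7.19 (NP) and 6.12 to 6.81 (NP+tau). Of these, Marco and Vsig4 lay under the limit in all muscles. Of the 6 endothelial markers, 5 were higher and 1 lower by mean in NP+tau, with list means of 7.82 to 7.95 (NP) and 8.08 to 8.29 (NP+tau). Neutrophil markers spread most, with list means of 5.91 to 10.12 (NP) and 7.33 to 8.78 (NP+tau), 3 of 7 higher and 4 lower by mean. Fibroblast markers averaged 10.14 to 11.27 (NP) and 10.12 to 10.95 (NP+tau), 3 of 7 higher and 4 lower. The 4 adipocyte markers on the array averaged 7.28 to 7.77 (NP) and 6.61 to 7.69 (NP+tau), 1 higher and 3 lower. The part of these cells in the values of the members was not tested.

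In liver, which has no motor endplates, the members served as a background. Liver and muscle were normalised separately, so levels are placed within a tissue only. Of the 13 probe sets, 9 of 7 genes passed the limit of 4.60, and Myod1, Myf6 and Chrnb1 did not. Myog, Chrna1 and the 3 Chrng probe sets passed it through NP+tau livers alone, and Chrne through NP replicate 3 alone, so that their values are a description and only Chrnd, Musk and Gadd45a are read as tested. Myf6 was at 3.56 to 3.74 in all livers. None of the 3 passed limma's test at an adjusted p under 0.05, as none of the 29274 probe sets did (0.0%), of which 1372 had an unadjusted p under 0.05. At an unadjusted p under 0.05 there was 1 of the 3, Gadd45a, against 4.69% of all probe sets. The groups did not overlap for Musk, which was higher in NP+tau, and for Gadd45a, which was lower. Over all probe sets kept in liver, 5.73% had groups apart with NP+tau higher and 9.11% with NP+tau lower.

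Myog was at 4.30, 4.34 and 4.19 in NP and at 5.08, 4.43 and 4.14 in NP+tau liver. Only the array that stood apart, NP+tau replicate 1, was above the limit. The difference was 0.27 (SE 0.26), and 0.01 without that array. The 3 Chrng probe sets had their highest value on the same array too, at 4.91, 4.95 and 4.73, and so did Chrnd, at 6.16. On this array the mean of the 12 skeletal muscle fibre markers was 5.09 against 4.45 to 4.60 in the other livers, and the mean of 5 cardiac muscle markers was 5.02 against 3.91 to 4.13.

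Chrnd, at 5.57 to 5.82 in the NP livers and 5.78 to 6.16 in the NP+tau livers, was the receptor gene with all values above the limit, and differed by 0.21 (SE 0.19, adjusted p = 0.718 from limma). Its difference was 0.09 (SE 0.13) without NP+tau replicate 1 and 0.49 (SE 0.19) with the Xist level as a covariate. In muscle, normalised separately, the same probe set was at 5.04 to 5.65. Whether its signal exceeds probe background in either tissue was not tested, so a value above the limit is not read as expression in liver. Chrna1 lay between 4.24 and 4.65 over the 6 livers and Chrne between 4.36 and 4.63, each above the limit in a single liver. Their differences were 0.08 (SE 0.18) and -0.07 (SE 0.16). The Chrng differences were 0.33 (SE 0.20) for 1449532_at, 0.33 (SE 0.29) for 1452520_a_at and 0.28 (SE 0.24) for 1427728_at, where no NP liver reached the limit. Chrnb1 stayed at 3.56 to 4.06 and Myod1 at 3.33 to 4.36.

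With the Xist level as a covariate, which in effect sets this array against the NP livers, 32.3% of all probe sets passed, and with the Xist-high livers only, 25.8%. Myog and the Chrng probe sets 1427728_at and 1452520_a_at were among them in both fits. They were kept in liver through this same array alone, so their being high there was fixed by the limit and nothing is read from these calls.

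Gadd45a in liver was at 6.23, 5.92 and 5.97 in NP and at 5.61, 5.46 and 5.06 in NP+tau, so that each NP+tau liver lay below each NP liver. The difference was -0.66 (SE 0.21, adjusted p = 0.718 from limma), which is 1.58-fold lower in NP+tau, and it was -0.78 to -0.50 with each liver left out. With the Xist level as a covariate it was -0.36 (SE 0.24), and for the Xist-high livers only -0.43 (SE 0.20), so that sex and the size of this difference cannot be told apart either. The 10 macrophage markers had list means of 8.82 to 9.89 (NP) and 7.43 to 8.37 (NP+tau) in liver, and their part in this value was not tested. In muscle the sign of Gadd45a was the opposite, but whether the tissues differed was not tested because the muscle values had chosen the gene. Musk in liver was at 4.68, 4.84 and 4.77 in NP and at 5.04, 4.89 and 5.05 in NP+tau, close to the limit of 4.60. The difference was 0.23 (SE 0.16, adjusted p = 0.718 from limma).

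**Figure D3:**
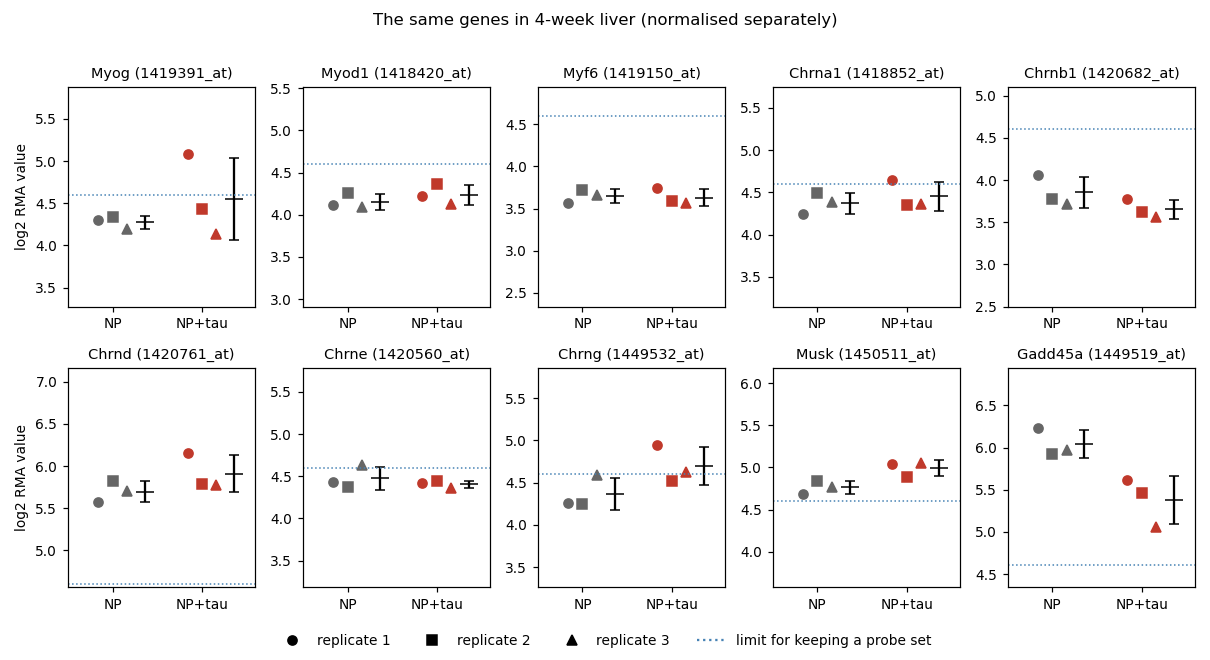
Log2 RMA values (vertical axes) of the brightest probe set of each gene in the 3 NP (grey) and 3 NP+tau (red) livers, with the mean and SD of 3 samples in black. The dotted line is the limit of 4.60 for keeping a probe set. Most values lie near or under it, and for Gadd45a the NP livers lie between 5.92 and 6.23 and the NP+tau livers between 5.06 and 5.61.

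**Figure D4:**
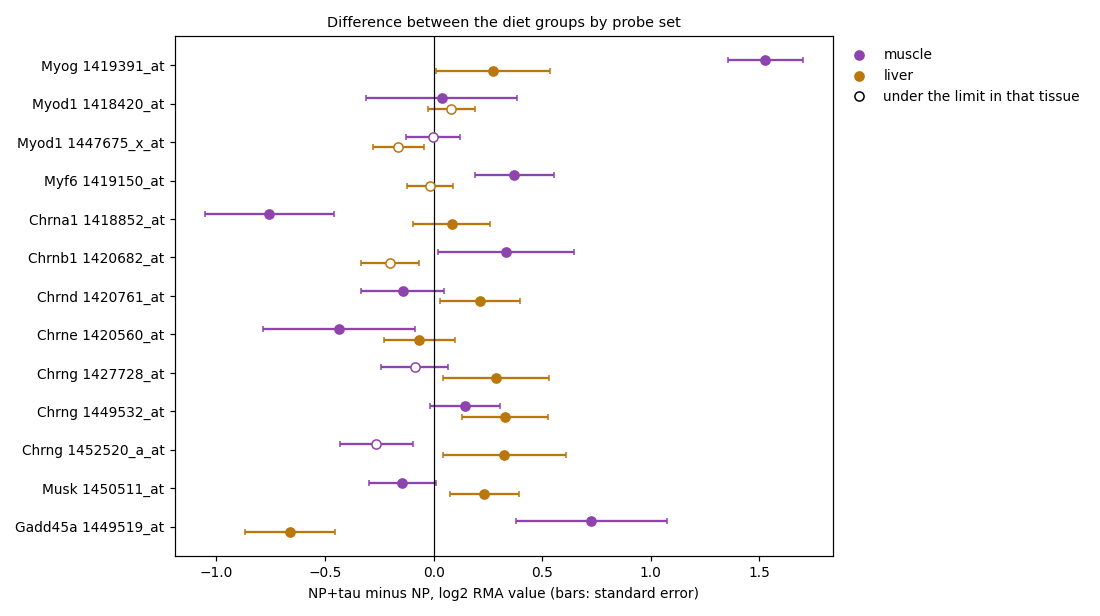
Difference NP+tau minus NP (horizontal axis, log2 RMA value) of all 13 probe sets in muscle (purple) and liver (ochre), with the standard error from limma. Open circles were under the limit in that tissue. In muscle Myog stands at 1.53, Gadd45a at 0.73 and Chrna1 at -0.76, and in liver Gadd45a stands at -0.66.

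Partners, regulators and synaptic genes around the members were taken from 9 lists with 136 genes. In muscle 115 of them were measured, each by its brightest probe set, and none passed limma's test at an adjusted p under 0.05. At an unadjusted p under 0.05, 5 were higher (4.35%) and 2 lower (1.74%) in NP+tau, where 4.24% and 2.08% of all genes were. Groups were apart with NP+tau higher for 12 (10.4%) and lower for 8 (6.96%), against 8.44% and 7.25% of all genes. The median difference was -0.01 over the lists and 0.03 over all genes. These shares are near the background. The muscle genes named from the lists for their small p had an adjusted p of 0.707 to 0.811 from limma. Each kept its sign with any muscle left out, although the size moved by over 1.5 times for several.

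The other Gadd45 genes had the smallest unadjusted p in the lists together with Sln. Gadd45g was at 9.19, 8.52 and 8.35 in NP and at 9.69, 9.95 and 9.98 in NP+tau muscle, so that all NP+tau muscles lay above. The difference was 1.19 (SE 0.24). Gadd45b was at 8.85, 8.46 and 8.39 in NP and at 6.97, 8.11 and 6.93 in NP+tau muscle, all below NP, with a difference of -1.23 (SE 0.34). The 3 Gadd45 genes thus differed in sign. Of the 13 genes measured in the list of Gadd45 relatives and p53 targets, 6 were above and 7 below 0, and the cyclin Ccng1 was at 0.43 (SE 0.30), and at 0.10 without NP replicate 1.

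Genes that respond to denervation or disuse had no common direction. Of 18 measured genes 7 were above and 11 below 0, with a median difference of -0.12. Sln, which encodes sarcolipin, an inhibitor of the calcium pump, was at 11.99, 10.41 and 9.87 in NP and at 9.24, 7.42 and 7.49 in NP+tau muscle. All NP+tau muscles lay below, by -2.71 (SE 0.67). The transcription factor Runx1, a gene raised by denervation, differed by -0.44 (SE 0.19). The deacetylase Hdac4, which denervation also raises, differed by 0.41 (SE 0.17).

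The E proteins, with which the muscle factors pair, were Tcf3 at 0.48 (SE 0.20), Tcf4 at 0.32 (SE 0.17) and Tcf12 at 0.22 (SE 0.14). The groups overlapped for Tcf3 and were apart for Tcf4 and Tcf12. The inhibitor Twist2 was at -0.35 (SE 0.17). In this list of 15 measured genes, 7 were above and 8 below 0. In the list of MEF2 factors, class II deacetylases, homeobox factors and cofactors, 10 of the 18 measured genes were above 0. The homeobox cofactor Eya1 was at 7.80, 7.46 and 7.13 in NP and 7.88, 7.91 and 8.17 in NP+tau muscle, a difference of 0.52 (SE 0.20). The deacetylase Hdac9, which represses MEF2, differed by 0.88 (SE 0.36) between overlapping groups.

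In the agrin, LRP4 and MuSK list 12 of 15 genes were above 0, with a median of 0.15. The first by p were Macf1 at 0.45 (SE 0.20), Crk at 0.35 (SE 0.16) and Ptpn11 at 0.41 (SE 0.23). None of the 15 had an unadjusted p under 0.05 from limma. Groups were apart with NP+tau higher for 1 (6.67%), against 8.44% of all genes. The share of all genes above 0 was not counted, so nothing is read from the 12. Of the 7 measured genes of neuregulin, ErbB and ETS factors, 3 were above 0. They included Gabpb1, a subunit of the factor GABP that binds the N-box, at 0.44 (SE 0.17), and the kinase Mapk8 at 0.70 (SE 0.32), whereas the ETS factor Etv5 was at -0.37 (SE 0.22). Without NP+tau replicate 2, Mapk8 was at 0.32 and Etv5 at -0.15. Of 16 genes of synaptic matrix and scaffold 6 were above 0. Lamb2, a laminin of the synaptic basal lamina, was at 0.43 (SE 0.26), and at 0.17 without NP replicate 1. The filament protein Nes was at -0.19 (SE 0.15). Colq, which anchors acetylcholinesterase, was at -0.27 (SE 0.18). Colq passed the limit of 4.49 through NP muscles alone, so its value is a description and nothing is read from its sign.

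Satellite cell genes were divided evenly, 6 above and 6 below 0, with Megf10 at 0.54 (SE 0.27), the receptor Met at 0.49 (SE 0.25), or 0.21 without NP replicate 1, and Heyl at 0.27 (SE 0.21). Of the acetylcholine receptor subunits of neurons, 5 of 11 were measured in muscle and 1 was above 0. Chrna3 was at -0.13 (SE 0.12), Chrnb2 at -0.12 (SE 0.16) and Chrna9 at -1.10 (SE 0.77), the last with 1 high sample, NP replicate 1 at 7.58, and the rest from 4.27 to 4.87. Without that sample Chrna9 was at -0.11.

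**Figure D5:**
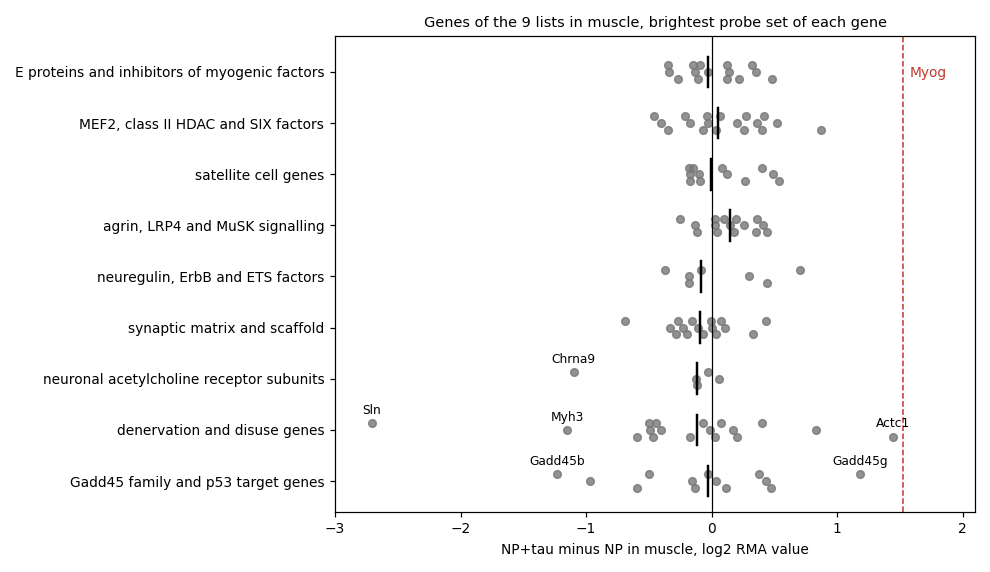
Muscle difference NP+tau minus NP (horizontal axis, log2 RMA value) of each measured gene (points) of the 9 lists, with black bars for list medians and a dashed line for Myog at 1.53. Genes beyond 1 in either direction are named. Most points lie within 0.5 of 0, Sln is at -2.71, and Actc1, the nearest to Myog, is at 1.45 (SE 0.97), or 0.20 without NP replicate 1.

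In liver 104 genes of the lists were measured and none passed limma's test at an adjusted p under 0.05. At an unadjusted p under 0.05, 2 were higher and 11 lower in NP+tau, or 1.92% and 10.6%, against 0.827% and 4.31% of all genes. The inhibitor Id1, which binds E proteins, differed by -1.80 (SE 0.53) and Tcf4 by -0.63 (SE 0.23). Chrna2 differed by 0.84 (SE 0.20), the metallothionein Mt1 by -1.06 (SE 0.25), Sesn1 by -0.83 (SE 0.25) and Gadd45b by -0.57 (SE 0.19). Among the partners and synaptic genes, Mef2a was at -0.50 (SE 0.20), Vcam1 at -0.89 (SE 0.33) and Kat2b at -0.43 (SE 0.22). The dystrophin relative Utrn was at -0.43 (SE 0.28) and the collagen Col13a1 at 0.56 (SE 0.22). Without NP replicate 1, Utrn was at -0.16 and Vcam1 at -0.56. Other values came in large part from NP+tau replicate 1, the array that stood apart. Without it Mapk8 was at -0.43 in place of -0.80 (SE 0.33), Sdc4 at -0.33 in place of -0.57 (SE 0.25) and Fbxo21 at -0.34 in place of -0.66 (SE 0.34). The kinase Abl1 was then at -0.17 in place of -0.44 (SE 0.28), and Abl2 at -0.22 in place of -0.42 (SE 0.25). Gabpb1 was at 0.28 in place of 0.45 (SE 0.21), and Chrna9 at 0.08 in place of 0.35 (SE 0.26). Chrna9 passed the limit of 4.60 through NP+tau livers alone, so its value is a description. The adjusted p of the other liver genes named from the lists was 0.718 from limma.

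The genes most like Myog across the 6 muscles were sought among 24553 other probe sets with 1 symbol, by the root mean square difference between mean-centred log2 values. The nearest was Coq10b, a coenzyme Q binding protein, at 0.253 log2 units. It was at 6.07, 6.30 and 6.44 in NP and at 7.84, 7.67 and 8.09 in NP+tau muscle. Then came the collagen-binding integrin Itga1 at 0.272, AW112010 at 0.294, the mitochondrial ATP-Mg/phosphate carrier Slc25a25 at 0.297 and the orphan nuclear receptor Esrrg at 0.299. Each had groups apart, which follows largely from their being picked for closeness to Myog, so nothing is read from it. Esrrg was between 5.79 and 6.20 (NP) and between 6.72 and 7.25 (NP+tau). The members lay farther from Myog, from 0.625 for Myf6 and 0.635 for Gadd45a to 1.21 for Chrna1. This distance takes in the difference between the diet groups given above.

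Nearest to Chrna1 were Myoz1, a protein of the Z-disc of fast fibres, at 0.128, the calcium channel subunit Cacng1 at 0.131, Clec10a at 0.135, Sh3rf2 at 0.137 and Amer1 at 0.140. Cacng1 was at 11.46, 10.88 and 10.57 in NP and at 10.47, 9.69 and 10.33 in NP+tau muscle, with NP+tau replicate 2 the lowest, as for Chrna1. These likenesses describe 6 samples and are not a test.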

How the data were processed

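The authors deposited log2 expression values of 45101 probe sets in 12 samples. Per the study's methods, Affymetrix arrays of the 4-week animals were quantile normalised within each tissue and summarised with RMA by the authors. Removal of probe sets called absent was not repeated here. The number of arrays limits the precision.

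Here 64 control probe sets were removed, and each tissue kept the probe sets whose highest value reached the 35th percentile of such maxima (29274 per tissue). Symbols came from the platform annotation; 34958 probe sets had 1 symbol, 932 several and 9211 none. The diet groups were compared within a tissue by limma 3.58.1 (R 4.3.3; lmFit, then eBayes), with Benjamini-Hochberg adjustment over all probe sets kept. The code was tested on simulated data. Probe sets under the limit have differences from a fit without the filter. Figures were drawn with matplotlib 3.10.9.

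The members and lists were chosen with earlier results of these data known. All probe sets of the members are given, and from each list up to 3 genes in muscle and up to 2 in liver, with the smallest unadjusted p. Actc1, Ache, Fbxo32, Sesn1 and Tcf12 in muscle, and Myh7, were chosen after their values were seen. Alternatives were no filter and a stricter one, an intensity trend, array weights, centring, a replicate block, the Xist level, Xist-high samples only and leaving out each sample.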

Additional observations from a re-analysis of the deposited data

How the results depend on the processing

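In muscle, no probe set passed under any alternative except without NP+tau replicate 1, so that the counts with each sample left out were 0 to 8. The Myog difference was 1.80 with the Xist level as a covariate and 1.79 for the Xist-high muscles only, moves of more than its spread between replicates, and 1.40 to 1.66 with each sample left out. Of 140 muscle differences of members under the alternatives, 130 moved by less than the spread between replicates. The 10 that moved further were Myog, Chrnd, Chrng, Musk and Gadd45a, each with the Xist level as a covariate and for the Xist-high muscles only. Groups were apart for 2 to 3 member genes with a sample left out, where fewer samples make this easier, and for 1 otherwise. In liver, 8 probe sets passed with array weights, 9449 with the Xist level as a covariate, 7562 for the Xist-high livers only, 0 to 9 with each sample left out (9 without NP+tau replicate 1, 1 without NP replicate 3) and 0 otherwise. Of the member probe sets 3 passed with the Xist level and 3 for the Xist-high livers only, all kept through NP+tau replicate 1 alone, and 0 with any sample left out. Member genes with groups apart in liver were 1 under the stricter filter, which removes Musk, and 2 to 4 with each sample left out. The liver difference of Chrna1 turned from 0.08 to -0.054 with array weights, and was -0.017 to 0.142 with each sample left out, negative without NP+tau replicate 1. That of Chrne was -0.119 to 0.012, positive without NP replicate 3. The cause was not tested. Non-overlap counts do not depend on the trend, weights, block or Xist, which gave no value for them. The lists had 0 genes past the threshold also by the most variable probe set of a gene.

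Replicate numbers did not pair the samples. The correlation of deviations from the group means was -0.21, -0.27 and 0.33 for the same numbers in muscle and 0.02, -0.11 and 0.11 in liver. With the replicate block no probe set passed in either tissue (0 and 0), and the Myog difference was 1.53.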

Other observations

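Several synaptic and disuse genes spread widely between muscles of the same diet group. Ache, the enzyme that breaks down acetylcholine at the synapse, was at 7.48, 8.30 and 8.37 in NP and at 8.18, 5.73 and 8.15 in NP+tau muscle, lowest in NP+tau replicate 2, where Chrne was lowest as well. Fbxo32, a ubiquitin ligase of muscle atrophy, was at 13.08, 10.23 and 7.68 in NP and at 8.77, 12.23 and 8.52 in NP+tau muscle, highest in NP replicate 1 and in NP+tau replicate 2. Actc1, the cardiac actin that immature muscle also makes, was at 9.78 in NP replicate 1 and at 13.28 to 14.01 in the other muscles. Sesn1, a p53 target, was at 11.90 in NP replicate 1 and at 8.81 to 9.75 in the others. Myog in NP replicate 1, at 6.20, was the lowest of the NP muscles.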
